A study of Mus musculus with 8 samples.

Results

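The 46 genes described here encode proteins that bring secretory and membrane proteins into the endoplasmic reticulum (ER), fold and glycosylate them there, retrieve escaped ER proteins and remove misfolded ones. They were chosen by symbol, in 9 groups by role, and each was found among the 24552 genes listed once in the table and among the 11211 genes tested. Lacrimal glands (LGs) lying outside the orbit were taken from female C57BL/6J mice of 10 to 11 months, an inbred strain with no transgene. One group was fed ad libitum (AL, n = 4). The other received 40% calorie restriction (CR, n = 4) from 6 to 7 months of age, for 4 months. CR mice were fed once a day before the dark phase, and the study's methods name more than one cohort, in one of which the CR chow held extra vitamins and micronutrients. The hour of collection and the cohort of each library are not given in the sources used here, so diet cannot be told apart from time since feeding. The comparison asked how CR altered the LG transcriptome. RNA was read near the 3′ ends of transcripts. Levels are in CPM, each count divided by its library size after scaling by relative log expression (RLE) factors. Where single libraries are listed, they stand in the order of replicates 1 to 4.

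Acinar cells of the LG are secretory cells with an extensive ER. Newly made tear proteins pass through the Sec61 channel, lose their signal peptide, receive N-linked sugars and fold with the help of chaperones and disulfide isomerases. When unfolded proteins accumulate, the sensors IRE1 (encoded by Ern1), ATF6 and PERK start the unfolded protein response (UPR), in which IRE1 splices the Xbp1 mRNA and the transcription factors XBP1 and ATF6 raise the expression of chaperones and of the machinery for ER-associated degradation (ERAD). Counts per gene, as used here, do not tell spliced from unspliced Xbp1.

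Libraries held from 12051881 to 22156511 counts, so that a floor of 3 counts equals 0.152 to 0.231 CPM depending on the library, for counting error only. The 46 genes together took 0.615 to 0.696% of the counts in the AL libraries and 0.463 to 0.789% in the CR libraries. CR replicate 4 stood apart from the other CR libraries in the tissue markers. The summed level of 8 parotid gland markers was 13808 to 43335 CPM in AL, 245959 to 305085 CPM in CR replicates 1 to 3 and 56470 CPM in CR replicate 4. All 9 lacrimal acinar markers were measured, and their sum was 189049 to 242053 CPM in AL, 80210 to 107270 CPM in CR replicates 1 to 3 and 213661 CPM in CR replicate 4. Counts of calls over the 46 genes are given with and without that library, as are many of the single values.

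A gene was called when its fold change was 1.5 or more and its adjusted p, from the quasi-likelihood test of edgeR and the Benjamini-Hochberg procedure, was below 0.05. Of the 46 genes, 0 were called higher in CR (background over all genes tested 1.2%) and 0 were called lower (background 0.785%). At an unadjusted p below 0.05, 2 were higher (Herpud1 and Kdelr3) and 4 were lower (Canx, Derl1, Ostc and Pdia4), against 8.62% and 8.1% of all genes tested. DESeq2 called 2 higher, Herpud1 and Kdelr3 (3.45% of all genes), and 1 lower, Canx (2.83%). With sample quality weights, limma voom called Herpud1 higher (2.11% of all genes) and Canx lower (1.43%). With the replicate number as a block, edgeR called Herpud1 and Kdelr3 higher (3.46% of all genes) and Canx and Ostc lower (2.78%). The labels name no shared source for equal numbers. The log2 fold change of CR over AL was positive in 20 genes and negative in 26. Its median was −0.17, beside 0.01 over all genes tested. Only Herpud1 had every CR library above every AL library (4.58% of all genes tested), and Canx, Derl1 and Ern1 had every CR library below every AL library (5.2%). In bulk tissue, fewer cells of a type and less RNA per cell cannot be told apart.

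**Figure D1:**
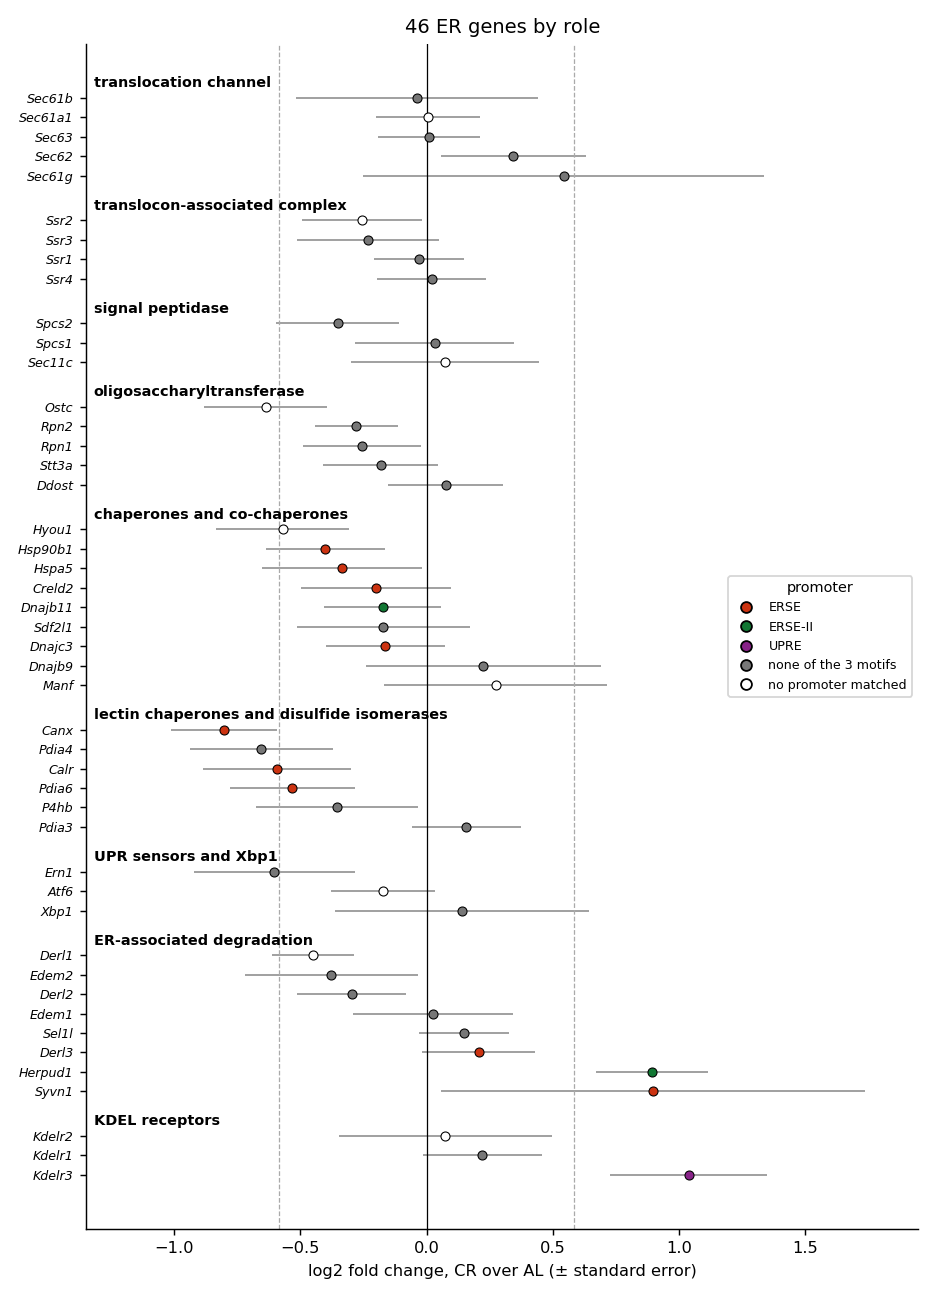
Log2 fold change (x axis, CR over AL) of the 46 genes with its standard error (bars), in blocks by role, with the colour showing which motif the promoter holds; dashed lines mark a fold change of 1.5. Kdelr3 (1.04), Syvn1 (0.90) and Herpud1 (0.89) lie farthest to the right and Canx (−0.80) farthest to the left.

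The promoters of UPR targets carry known elements, which were searched for in all promoters alike. In RefSeq promoters on GRCm38.p6, which run from 250 bases before to 50 bases after the gene start, 37 of the 46 genes had an entry; Atf6, Derl1, Hyou1, Kdelr2, Manf, Ostc, Sec11c, Sec61a1 and Ssr2 had none. Both strands were searched for the ER stress response element ERSE (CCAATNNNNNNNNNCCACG), for ERSE-II (ATTGG, any 1 base, CCACG) and for the UPR element UPRE (TGACGTGG), whose last 5 letters are the reverse complement of the last 5 of the other motifs. ERSE was found in Calr, Canx, Creld2, Derl3, Dnajc3, Hsp90b1, Hspa5, Pdia6 and Syvn1, which is 24.3% of the 37, against 0.137% of 27025 genes with a promoter. ERSE-II was found in Dnajb11 and Herpud1 (5.41% against 0.0444%), and UPRE in Kdelr3 (2.7% against 0.714%). The 46 genes were chosen for ER roles and include known UPR targets, so these shares describe the choice and not an effect of diet. The 27025 genes include the 37. The stretches around the motifs of 6 genes, which include the 3 genes with the smallest p, are printed 5′ to 3′ in the direction of the gene, with the motif in capitals; in Calr, Creld2 and Kdelr3 it reads on the opposite strand.
Herpud1, chr8:94386357-94386407, plus strand: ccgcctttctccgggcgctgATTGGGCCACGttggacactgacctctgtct
Kdelr3, chr15:79516358-79516405, plus strand: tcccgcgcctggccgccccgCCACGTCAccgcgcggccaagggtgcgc
Canx, chr11:50325780-50325838, minus strand: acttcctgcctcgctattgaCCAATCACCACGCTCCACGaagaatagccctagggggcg
Calr, chr8:84847055-84847113, minus strand: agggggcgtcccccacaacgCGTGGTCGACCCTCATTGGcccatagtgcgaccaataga
Pdia6, chr12:17266471-17266529, plus strand: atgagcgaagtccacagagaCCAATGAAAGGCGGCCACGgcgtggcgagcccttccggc
Creld2, chr15:88819500-88819558, plus strand: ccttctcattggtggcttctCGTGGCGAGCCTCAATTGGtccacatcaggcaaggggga

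With all libraries, the log2 fold changes of the 9 genes with an ERSE ran from −0.80 in Canx to 0.90 in Syvn1, with 7 negative, 2 positive and a median of −0.34. Without CR replicate 4, all 9 were negative, from −0.89 in Canx to −0.0031 in Derl3, and their median was −0.66. The 25 genes whose promoter held none of the motifs had a median of −0.03, with 12 positive and 13 negative, and without CR replicate 4 it was −0.40, with 5 positive and 20 negative. Other genes with an ERSE that are outside the 46 numbered 9 among those tested, and their median was −0.14. A match describes the letters in the window only.

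The translocation channel is formed by Sec61a1, Sec61b and Sec61g, with Sec62 and Sec63 as its partners for proteins that enter after translation. None of the 5 passed an unadjusted p of 0.05, and the median log2 fold change was 0.01. The smallest p was that of Sec62, whose level was 81.4, 91.3, 58.4 and 145.9 CPM in the AL glands and 84.8, 119.5, 101.5 and 172.7 CPM in the CR glands. The diets overlapped, and replicate 4 was the highest library in both. Its log2 fold change was 0.34 with a standard error of 0.29 (edgeR adjusted p = 0.62), and ran from 0.11 without CR replicate 4 to 0.63 without AL replicate 4 (edgeR adjusted p = 0.25). Sec61a1, the pore-forming subunit, had means of 385 ± 54.0 CPM in AL and 386 ± 66.2 CPM in CR (SD, n = 4), a log2 fold change of 0.01 with a standard error of 0.21. Both small subunits varied more within each diet than between diets. Sec61g ranged from 1.68 to 32.4 CPM in AL and from 3.04 to 42.8 CPM in CR, and Sec61b from 52.3 to 256 CPM and from 61.0 to 246 CPM. Leaving out CR replicate 4 took the log2 fold change of Sec61g from 0.54 to −0.22 and that of Sec61b from −0.04 to −0.50. Windows of 75 bases near the 3′ end also occur in other genes, among them Gm10177 and Gm10320, for 23.2% of those of Sec61g and 18.6% of those of Sec61b, so the counts of both are uncertain.

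The translocon-associated protein complex, which assists the entry of some signal sequences, is encoded by Ssr1 to Ssr4. Log2 fold changes were −0.26 for Ssr2, −0.23 for Ssr3, −0.03 for Ssr1 and 0.02 for Ssr4. Ssr2 had the smallest p. Its level was 45.999, 44.8, 35.0 and 58.2 CPM in the AL glands and 36.2, 31.1, 28.9 and 57.8 CPM in the CR glands. CR replicates 2 and 3 were lower than every AL library, CR replicate 1 lay just above AL replicate 3, and CR replicate 4 was close to the highest AL library (standard error 0.24, edgeR adjusted p = 0.66). Without that library Ssr2 was at −0.52 (edgeR adjusted p = 0.16), Ssr3 at −0.59 (0.14) and Ssr1 at −0.17.

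Signal peptidase cuts the signal peptide from the growing chain. Spcs2, one of its accessory subunits, stood at 240.4, 224, 197 and 261 CPM in the AL glands and at 160.2, 131, 151 and 280.1 CPM in the CR glands. CR replicates 1 to 3 lay below every AL library and CR replicate 4 above every one. This gave a log2 fold change of −0.35 with a standard error of 0.24 (edgeR adjusted p = 0.52). The catalytic subunit Sec11c (0.07) and Spcs1 (0.03) had log2 fold changes nearer 0, with CR replicate 4 again the highest CR library in both. Without that library the values were −0.65 for Spcs2 (edgeR adjusted p = 0.063), −0.33 for Sec11c and −0.25 for Spcs1. With other single libraries left out, the values reached −0.22 for Spcs2, 0.37 for Sec11c and 0.22 for Spcs1. A pseudogene, Spcs2-ps, shares 2.73% of the 3′ windows of Spcs2.

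Oligosaccharyltransferase transfers the sugar chain to asparagine residues. Ostc, an accessory subunit of the complex that holds Stt3a, was measured at 134, 98.1, 109.7 and 78.2 CPM in the AL glands. In CR replicates 1 to 4 it was 97.7, 45.5, 59.7 and 66.9 CPM. CR replicate 1 lay within the AL range and the other 3 CR libraries below it. Ostc had a log2 fold change of −0.64 with a standard error of 0.24 and an unadjusted p of 0.022 (edgeR adjusted p = 0.20). Unlike most of the 46, it was not highest in CR replicate 4, and leaving that library out gave −0.63. Values for the other subunits were −0.28 for Rpn2, −0.26 for Rpn1, −0.18 for the catalytic subunit Stt3a and 0.08 for Ddost, and the median of the 5 was −0.26. Without CR replicate 4 they were −0.38, −0.47, −0.43 and −0.14 in the same order, with edgeR adjusted p values of 0.22 to 0.77.

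CR replicate 4 lay apart from the other CR libraries in the chaperones and co-chaperones of the ER lumen. All 9 were highest in that library among the CR libraries, and in 8 of them it also lay above every AL library, against 24.4% of all genes tested. Hspa5, which encodes the Hsp70 chaperone BiP, stood at 1187, 865, 1228 and 847 CPM in the AL glands and at 743, 515, 652 and 1360.5 CPM in the CR glands. CR replicates 1 to 3 were below every AL library and CR replicate 4 was above every one. Over all 8 libraries the log2 fold change was −0.34 with a standard error of 0.32 (edgeR adjusted p = 0.66). Without CR replicate 4 the value was −0.70 (edgeR unadjusted p = 0.016, adjusted p = 0.13). Across the fits that left out 1 library, Hspa5 ran from −0.70 to −0.16.

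Hyou1, a large Hsp70-like chaperone that acts as nucleotide exchange factor for BiP, showed a similar arrangement. Its level was 29.7, 31.2, 28.1 and 36.4 CPM in the AL glands and 17.4, 14.9, 16.5 and 35.7 CPM in the CR glands. The first 3 CR libraries lay below the AL range and CR replicate 4 within it. With all libraries its log2 fold change was −0.57, with a standard error of 0.26 (edgeR adjusted p = 0.30). Without CR replicate 4 it was −0.95, and the gene was called lower (edgeR adjusted p = 0.0077). Over the fits that left out 1 library, Hyou1 ran from −0.95 to −0.43 and was called in only 1. Creld2, an ER protein with disulfide isomerase activity, was measured at 42.0, 32.0, 36.0 and 31.2 CPM in the AL glands and at 24.5, 23.3, 18.9 and 55.9 CPM in the CR glands. Here too CR replicates 1 to 3 lay under the AL range and CR replicate 4 over it. Its log2 fold change was −0.20 with all libraries and −0.66 without CR replicate 4 (edgeR adjusted p = 0.054). The range of Creld2 over the fits that left out 1 library was −0.66 to −0.02.

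Of the other chaperone genes, Hsp90b1, which encodes GRP94, had a mean of 235 ± 25.3 CPM in AL and 178 ± 61.2 CPM in CR (SD, n = 4), with a log2 fold change of −0.40 and a standard error of 0.24 (−0.66 without CR replicate 4, edgeR adjusted p = 0.067). The DnaJ co-chaperones Dnajb11 (−0.17), Dnajc3 (−0.16) and Dnajb9 (0.23), the BiP partner Sdf2l1 (−0.17) and the secreted ER factor Manf (0.27) had standard errors of 0.23 to 0.47. Manf ranged from 14.2 to 77.9 CPM and Dnajb9 from 4.95 to 29.8 CPM among the CR libraries, with the top value of each in CR replicate 4, and without it their log2 fold changes were −0.43 and −0.48. Sdf2l1 was then at −0.66, Dnajb11 at −0.41 and Dnajc3 at −0.38. With other single libraries left out, Sdf2l1 reached 0.04, Dnajb11 −0.03, Dnajc3 −0.05, Manf 0.54 and Dnajb9 0.51. The median log2 fold change of the 9 genes was −0.17, with 7 negative.

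**Figure D2:**
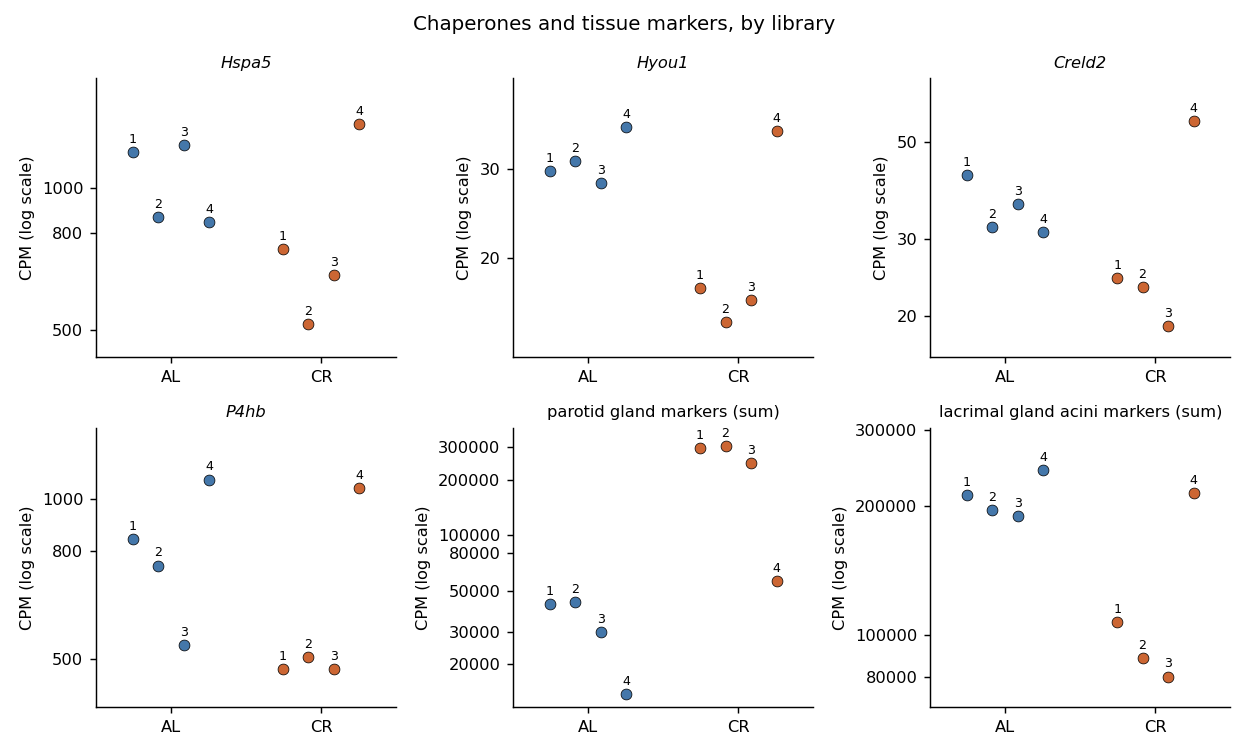
CPM on a log scale (y axis) of Hspa5, Hyou1, Creld2 and P4hb and of the summed parotid and lacrimal acinar markers, 1 point per library, numbered by replicate, with AL in blue and CR in orange. In each panel CR replicate 4 lies apart from CR replicates 1 to 3, at 1360.5 CPM against 515 to 743 CPM for Hspa5.

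Lectin chaperones hold glycoproteins while they fold, and disulfide isomerases form and rearrange their disulfide bonds. Values in this group were the lowest of the 9 groups, with a median log2 fold change of −0.56 and 5 of 6 genes negative. Canx (Gene ID 12330, chromosome 11, 50293961 to 50325673 on GRCm38), which encodes the membrane-bound lectin calnexin, was at 331, 245, 287 and 247 CPM in the AL glands. It was at 182, 114, 154 and 186 CPM in the CR glands. The diets did not overlap, and in this gene CR replicate 4 stayed with the other CR libraries. Calnexin mRNA had a log2 fold change of −0.80 with a standard error of 0.21, a mean of 277 ± 40.8 CPM in AL against 159 ± 33.4 CPM in CR (SD, n = 4), and the edgeR adjusted p was 0.071. When each library was left out in turn, the log2 fold change of Canx ran from −0.89 to −0.66, and it was called lower only without CR replicate 4 (edgeR adjusted p = 0.031).

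Pdia4, a disulfide isomerase known to be induced in the UPR, was at 83.4, 54.5, 117 and 54.4 CPM in the AL glands and at 62.7, 30.8, 45.2 and 57.8 CPM in the CR glands. The diets overlapped, and AL replicates 1 and 3 were the highest of all libraries. Pdia4 had a log2 fold change of −0.66 with a standard error of 0.28 and an unadjusted p of 0.040 (edgeR adjusted p = 0.27), and was at −0.39 without AL replicate 3 (unadjusted p = 0.16). Pdia6, another isomerase, had 55.3 to 73.4 CPM in AL, 28.8 to 44.8 CPM in CR replicates 1 to 3 and 69.8 CPM in CR replicate 4. Its log2 fold change was −0.53 with all libraries (edgeR adjusted p = 0.30) and −0.83 without CR replicate 4, where it was called lower (edgeR adjusted p = 0.025). Calr, which encodes the soluble lectin calreticulin, had a log2 fold change of −0.59 with a standard error of 0.29 (543 ± 104 CPM in AL, 360 ± 134 CPM in CR, SD, n = 4, edgeR adjusted p = 0.34), and was at −0.78 without CR replicate 4 (edgeR adjusted p = 0.14). P4hb (−0.36), the prototype protein disulfide isomerase, had 478, 505 and 478 CPM in CR replicates 1 to 3 and 1051 CPM in CR replicate 4, with 533 to 1090 CPM in AL, and its log2 fold change was −0.72 without that library (edgeR adjusted p = 0.13). With 1 library left out, the values ran from −0.83 to −0.37 for Pdia6, −0.78 to −0.37 for Calr and −0.72 to −0.18 for P4hb. Pdia3 (0.16), the partner isomerase of both lectins, was the positive value of the group, and was at −0.075 without CR replicate 4.

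**Figure D3:**
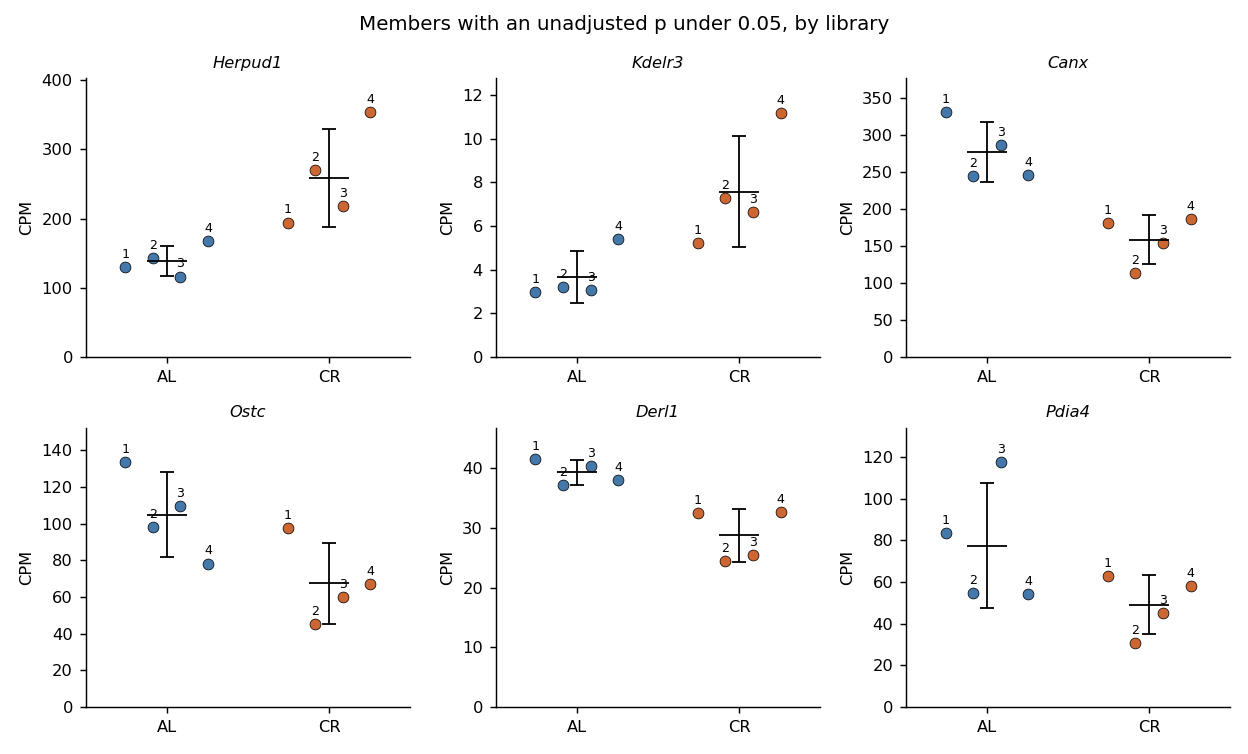
CPM (y axis, from 0) of the 6 genes with an unadjusted p below 0.05, 1 point per library, numbered by replicate, with the mean and SD of each diet in black. Herpud1, Canx and Derl1 do not overlap between AL (blue) and CR (orange), and Kdelr3, Ostc and Pdia4 do.

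The UPR sensors were represented by Ern1 and Atf6, with the transcription factor gene Xbp1. Ern1 was scarce, at 2.93, 3.43, 3.13 and 5.28 CPM in the AL glands and 2.69, 1.89, 2.79 and 2.39 CPM in the CR glands. Every CR library lay below every AL library, by a narrow margin between CR replicate 3 and AL replicate 1. Its log2 fold change was −0.60 with a standard error of 0.32 (edgeR adjusted p = 0.38), and the gene had as few as 32 counts in a library. Atf6 had 21.3 to 25.4 CPM in AL, 16.1 to 19.1 CPM in CR replicates 1 to 3 and 30.0 CPM in CR replicate 4, a log2 fold change of −0.17 (−0.40 without CR replicate 4).

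Xbp1 gave 54.9, 87.0, 38.6 and 177 CPM in the AL glands and 41.5, 105.8, 56.0 and 191 CPM in the CR glands. In both diets replicate 4 was highest and replicate 2 second, and the spread within a diet was 4.59-fold in AL and 4.61-fold in CR. Its log2 fold change of 0.14 had a standard error of 0.50, and the sign changed when 1 of several libraries was left out (−0.40 to 0.71).

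ERAD recognises misfolded proteins, pulls them back across the membrane and marks them with ubiquitin. Herpud1 (Gene ID 64209, chromosome 8, 94386438 to 94395377), which encodes an adaptor of the ERAD complex, was at 131, 144, 117 and 167 CPM in the AL glands. It was at 195, 270.2, 219 and 354 CPM in the CR glands. Each CR library exceeded each AL library, and CR replicate 4 was the highest of all. Herpud1 had a log2 fold change of 0.89 with a standard error of 0.22 (139.5 ± 21.6 CPM in AL, 259 ± 70.6 CPM in CR, SD, n = 4), and the edgeR adjusted p was 0.063. With 1 library left out it stayed between 0.71 and 1.02, and the edgeR adjusted p between 0.055 and 0.16. Robust dispersion estimates (1.06% of all genes called higher) and omission of the filter on low counts (1.62%) each called it higher, as did DESeq2 and voom.

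Derl1, a channel-forming component of the ERAD complex, was at 41.6, 37.2, 40.3 and 38.1 CPM in the AL glands and at 32.5, 24.5, 25.4 and 32.6 CPM in the CR glands. All CR libraries were below all AL libraries, and the AL libraries spanned only a 1.12-fold range. Derl1 had a log2 fold change of −0.45 with a standard error of 0.16 and an unadjusted p of 0.017 (edgeR adjusted p = 0.18). Its relatives Derl2 (−0.30) and Derl3 (0.21) overlapped between diets. Without CR replicate 4 the 3 derlin genes were at −0.52 (Derl1), −0.39 (Derl2) and −0.0031 (Derl3), and the difference between them was not tested.

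Syvn1, which encodes the ubiquitin ligase HRD1, had the widest spread of the ERAD genes. It was at 9.79, 18.8, 3.79 and 42.9 CPM in the AL glands and at 5.09, 26.9, 8.05 and 101 CPM in the CR glands. The highest CR library exceeded the lowest 19.8-fold, and the AL libraries differed by up to 11.3-fold. Its log2 fold change of 0.90 had a standard error of 0.84, and without CR replicate 4 it was −0.50. Exons of Syvn1 overlap Mrpl49 on the opposite strand, and the strand setting used for counting is not given in the sources used here, so reads of the 2 genes may not be told apart. Sel1l, the partner of HRD1, had 174 to 210.5 CPM in AL and 189 to 262 CPM in CR, a log2 fold change of 0.15 (0.053 without CR replicate 4). Edem1 (0.03) and Edem2 (−0.38), mannose-trimming proteins that mark glycoproteins for ERAD, had standard errors of 0.32 and 0.34, and were at −0.41 and −0.82 without CR replicate 4.

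KDEL receptors return escaped ER proteins from the Golgi, and all 3 had a positive log2 fold change with all libraries. Kdelr3 (Gene ID 105785, chromosome 15, 79516411 to 79527739) was at 3.00, 3.19, 3.06 and 5.43 CPM in the AL glands and at 5.23, 7.28, 6.63 and 11.2 CPM in the CR glands. CR replicate 1 lay just below AL replicate 4, and otherwise CR exceeded AL. At 1.04 its log2 fold change was the largest of the 46, with a standard error of 0.31 and an unadjusted p of 0.0056 (edgeR adjusted p = 0.11). With 1 library left out it ran from 0.79 to 1.29. Kdelr3 overlaps Ddx17 on the opposite strand, with the same limit as Syvn1. Exons on the opposite strand overlap 15 of the 46 genes, among them Pdia6, Hsp90b1, Sec62, Ssr2, Manf and Derl2, with the same limit. Exons on the same strand overlap Hsp90b1, Manf and Pdia4, where strand cannot tell reads apart whatever the setting. Kdelr1 (0.22) and Kdelr2 (0.07) had standard errors of 0.24 and 0.42, and were at 0.11 and −0.45 without CR replicate 4. Kdelr2 spanned 17.3 to 68.7 CPM in CR.

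Across roles, libraries of the same diet differed in a shared way. CR replicate 4 was the highest CR library in 39 of the 46 genes (84.8%, against 29.9% of all genes tested) and lay above every AL library in 29 (63%, against 24.4%). CR replicates 1 to 3 lay below every AL library in 13 genes (28.3%, against 8.92%), among them Hspa5, Hsp90b1, Hyou1, Calr, Canx, Pdia6 and P4hb. AL replicate 4 was the highest AL library in 22 genes (47.8%, against 27.4%), and AL replicate 3 the lowest in 26 (56.5%, against 29.1%). Replicate 4 was the highest library of both diets in 21 genes (45.7%, against 14.6%). The order was not limited to the 46. Among 114 other pathway genes tested, CR replicate 4 was the highest CR library in 72 (63.2%) and AL replicate 4 the highest AL library in 55 (48.2%). Of the 9 lacrimal acinar markers, 8 (88.9%) were highest in CR replicate 4 among the CR libraries. AL replicate 4 (22156511 counts) and CR replicate 4 (19310319) were the deepest libraries of their diets, and AL replicate 3 (12051881) was the shallowest of all. The part of depth in these orders was not tested. On a log2(CPM + 1) scale relative to the AL mean, the median shift of the 46 genes was −0.32, −0.37 and −0.49 in CR replicates 1, 2 and 3 and 0.41 in CR replicate 4. In the AL libraries it was 0.09, −0.05, −0.21 and 0.19. For the chaperones alone it was −0.45, −0.65 and −0.62 in CR replicates 1 to 3 and 0.42 in CR replicate 4. For the lectin chaperones and isomerases CR replicate 4 was level with the AL mean, and for the KDEL receptors it was at 1.11.

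**Figure D4:**
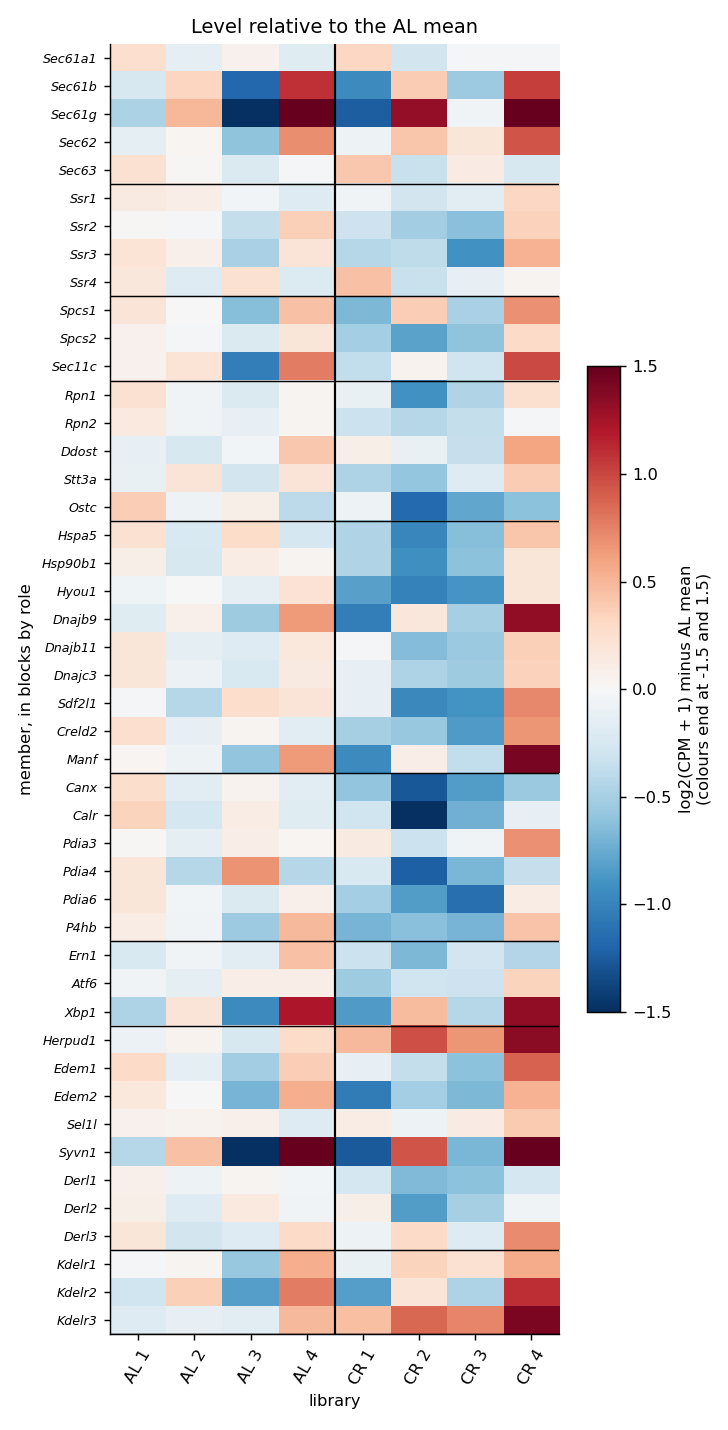
Difference of log2(CPM + 1) from the AL mean (colour, ending at −1.5 and 1.5) for each of the 46 genes (rows, in blocks by role) in each library (columns). The column of CR replicate 4 is mostly red (median 0.41), those of CR replicates 1 to 3 mostly blue (−0.32 to −0.49), and the rows of Syvn1, Sec61g and Xbp1 vary within both diets.

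With CR replicate 4 left out, log2 fold changes were negative in 38 of the 46 genes and positive in 8, and their median was −0.43 (all genes −0.02). The sign turned from positive to negative in 12 genes and from negative to positive in 0. Canx, Hyou1 and Pdia6 were then called lower (2.17% of all genes tested) and 0 genes were called higher (3.97%). At an unadjusted p below 0.05, 20 were lower (9.74%) and 2 higher (10.2%). Leaving out any 1 of the other 7 libraries gave 0 calls in either direction (0.308 to 0.798% of all genes higher, 0.22 to 0.658% lower), 1 to 4 lower (6.05 to 8% of all genes) and 2 to 3 higher genes (6.79 to 8.88%) at an unadjusted p below 0.05, and a median of −0.19 to −0.02. With both libraries numbered 4 left out, a setting chosen after the data were seen, Herpud1 was called higher (3.68%) and Canx, Creld2, Hyou1 and Pdia6 lower (2.16%), and the median was −0.35.

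**Figure D5:**
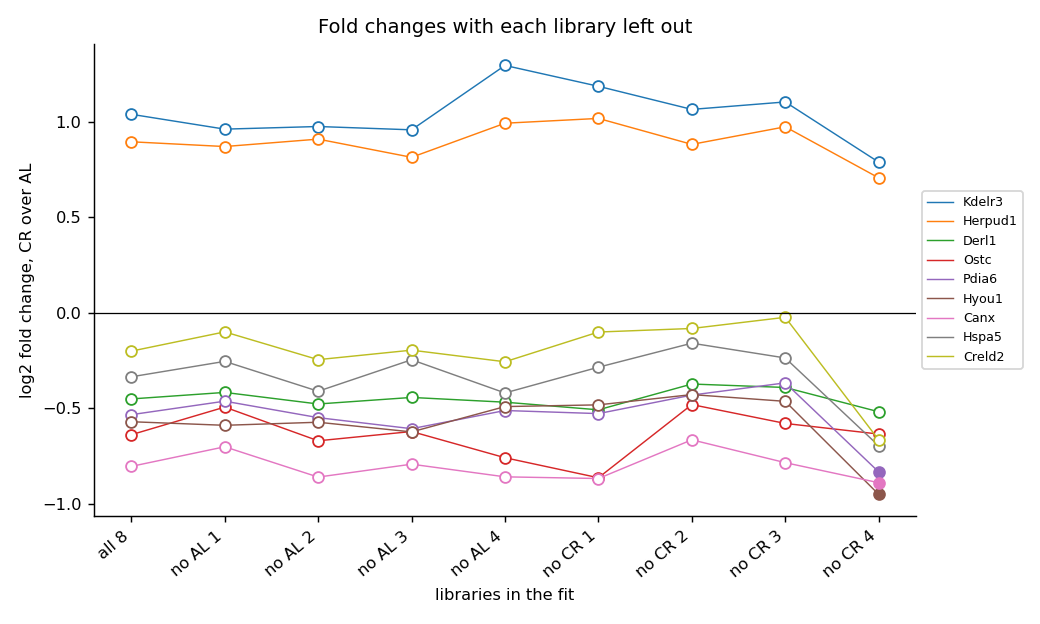
Log2 fold change of CR over AL (y axis) for 9 of the 46 genes with all 8 libraries and with each library left out (x axis); a filled point has an edgeR adjusted p below 0.05. Filled points appear only without CR replicate 4, for Hyou1 (−0.95), Canx (−0.89) and Pdia6 (−0.83).

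The tissue markers moved with the same libraries. All 8 parotid markers, among them the salivary genes Bpifa2 and Amy1, were higher in CR at an unadjusted p below 0.05, and 3 were called. Their sum did not overlap between diets. Singly, 5 of the 8 had every CR library above every AL library (4.58% of all genes tested), and Bpifa2, Amy1 and Dnase1 overlapped. Bpifa2 was at 13700 CPM in CR replicate 4 and at 17744 CPM in AL replicate 1. In AL replicate 4, Car6 made up 11790 of the summed 13808 CPM, and Bpifa2 was at 190 CPM. The mean log2 CPM of the 8 markers was 3.78 to 8.29 in AL and 10.1 to 13.3 in CR. When this score entered the fit as a covariate, the 46 genes had a median log2 fold change of 0.29 rather than −0.17. Below an unadjusted p of 0.05 lay 8 higher genes (5.53% of all genes tested) and 1 lower gene (4.33%), and edgeR called 0 in either direction (0.0268% and 0% of all genes). Because the score did not overlap between diets, its part and that of diet in these values cannot be told apart. Among the lacrimal acinar markers, 7 of 9 had a negative log2 fold change, Aqp5 (0.31) and Bhlha15 (0.22) a positive one, and 2 were called lower. Those 2, the secretoglobin genes Scgb2b7 and Scgb1b7, did not exceed 0.41 CPM in CR replicates 1 to 3, with 8.77 and 13.1 CPM in CR replicate 4. In the AL libraries they were at 111 to 1204 CPM and 152 to 1369 CPM, so CR replicate 4 was far below AL in both. The acinar sum of CR replicate 4, 213661 CPM, held 152782 CPM of Obp1a. Plasma cells are rich in ER as well. Of their 8 listed markers 4 were measured, and the sum was 9.94 to 36.7 CPM in AL and 7.62 to 13.6 CPM in CR. The 3 that were tested had a negative log2 fold change, and 2 were lower at an unadjusted p below 0.05 (8.1% of all genes tested). Macrophage markers summed to 70.7 to 215 CPM in AL and 43.8 to 86.4 CPM in CR, B and T cell markers to 2.74 to 12.3 CPM and 0.283 to 1.73 CPM, and fibroblast markers to 119 to 189 CPM and 117 to 182 CPM. All 6 macrophage markers had a negative log2 fold change, and 5 were lower at an unadjusted p below 0.05 (8.1% of all genes tested). Of the 6 fibroblast markers, 5 had a negative log2 fold change and 3 were lower at an unadjusted p below 0.05 (median −0.83). Dcn, the most abundant, was at 0.22. Adipocyte markers summed to 4.93 to 11.5 CPM in AL and 18.0 to 57.1 CPM in CR, and skeletal muscle markers to 0.797 to 10.5 CPM and 2.33 to 64.8 CPM. None of these markers was at 0 in every library. The part of these cells in the values of the ER genes was not tested.

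Other genes of the pathway, 119 in 6 lists, gave 114 that could be tested. Of these, 1 was called higher and 0 lower (1.2% and 0.785% of all genes tested), 7 in each direction had an unadjusted p below 0.05 (8.62% and 8.1%), and the median log2 fold change was 0.00. Creb3l1 (Gene ID 26427), which encodes OASIS, a transcription factor held in the ER membrane and cut in response to ER stress, rose. Its level was 22.6, 27.2, 19.6 and 36.1 CPM in the AL glands and 71.5, 103.5, 94.3 and 79.4 CPM in the CR glands. The lowest CR library was well over the highest AL library, and CR replicate 4 lay among the others. Creb3l1 had a log2 fold change of 1.72 with a standard error of 0.22 (edgeR adjusted p = 0.0039), and in the 8 fits that left out 1 library it ran from 1.60 to 1.91 and was called each time. With the parotid score as a covariate it was 2.20 and was not called.

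In the arm of the UPR that runs through PERK, Trib3, a pseudokinase gene, had 0.46 to 1.37 CPM in AL and 0.9996 to 4.21 CPM in CR, a log2 fold change of 1.47 with a standard error of 0.54 (edgeR adjusted p = 0.19). Ddit3, which encodes the transcription factor CHOP, was at 0.85 (edgeR adjusted p = 0.27), with 1.78 to 5.17 CPM in AL and 3.91 to 6.01 CPM in CR. Atf4, the transcription factor gene upstream of both, was at −0.42 (edgeR adjusted p = 0.29), and every CR library (98.9 to 156 CPM) lay below every AL library (166 to 214 CPM). Atf6b, a relative of Atf6, was at −0.42. In the whole list, which holds other UPR regulators too, 12 of the 16 genes tested were positive and 4 negative (median 0.13). At an unadjusted p below 0.05, 3 were higher (8.62% of all genes tested) and 2 lower (8.1%). Chac1, a target of ATF4 and CHOP, had the most negative log2 fold change of the pathway list, −1.23 with a standard error of 0.61 (edgeR adjusted p = 0.35), with 2.54 to 17.6 CPM in AL and 1.203 to 7.99 CPM in CR.

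Among the other lists, the folding factors Cnpy3 (−0.63) and Erp29 (−0.55) had edgeR adjusted p values of 0.15 and 0.19, and 3 of 24 genes in that list were lower (8.1% of all genes tested) and 1 higher (8.62%) at an unadjusted p below 0.05. In ERAD, Vcp (−0.43), the ATPase that extracts substrates, and the lectin gene Erlec1 (0.35) stood at 0.25 and 0.27. Of the genes for transport from the ER to the Golgi, Ergic1 was at −0.64 (edgeR adjusted p = 0.17) and Ergic3 at 0.57 (0.27), and of the other translocation genes Emc6, a subunit of the ER membrane insertase, was at 0.39 (0.26). Ergic1 and Cnpy3 were called lower without CR replicate 4. Exons of other genes overlap Ergic1, Vcp and Erp29 on the opposite strand, with the same limit as Syvn1. None of the 6 other oligosaccharyltransferase genes tested had an unadjusted p below 0.05.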

How the data were processed

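RNA of 8 exorbital LGs was sequenced at the 3′ ends with an oligo(dT) kit, in single reads of 75 bases. On the ROSALIND platform the authors used cutadapt for trimming, STAR for alignment (mm10) and HTSeq for counting, and deposited raw counts; tool versions and the strand setting are not given in the sources used here. The log2 values that the authors deposited equal log2 of the count over the RLE size factor plus 1 (largest difference 0) and were not used further. Cornea and conjunctiva were not analysed here.

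Of 24557 listed genes, 5 repeated symbols were dropped, and 11211 passed filterByExpr. Diets were compared with edgeR 4.0.16 (R 4.3.3, RLE factors, quasi-likelihood F test, Benjamini-Hochberg adjustment) over all genes tested; the standard error is the size of the log2 fold change over the square root of F. The labels do not say whether libraries shared a cage or batch, so p-values measure the spread between these libraries. The smallest p of an exact permutation test of 4 against 4 would be 0.0286. The script was tested on simulated data. No same-diet pair of libraries agreed within sampling noise (chi-square per degree of freedom 39.4 to 683).

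Alternatives were other scaling (TMM, upper quartile), DESeq2 1.42.0 (fold changes shrunken or not), limma 3.58.1 voom, robust dispersion, other count filters, no fold threshold, a replicate block, a covariate for the parotid score, and omission of each library or of the 50 most counted genes. The 46 genes, their groups and all lists were chosen with earlier results of these data known, so counts over them are descriptions. The lists were written from general knowledge, and Bhlha15 is in the acinar and the UPR list. Given with values in every library were members with an unadjusted p below 0.05 and the smallest p of each role group, and other pathway genes that were called; up to 2 others per pathway list, with the smallest p below 0.05, are given by fold change and adjusted p. Hspa5, Syvn1, Xbp1, Pdia6, Calr, Creld2, P4hb, Ddit3, Atf4, Atf6b and Chac1 were singled out after their values were seen, as were the counts of genes by library. Positions are from GENCODE vM21 on GRCm38, with 3′ windows searched in the last 600 bases, and promoters from RefSeq.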

Additional observations from a re-analysis of the deposited data

Results flagged for a closer look

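In each diet the 4 libraries were examined for a value far from the others, by Dixon's criterion, in the 46 genes. Of 92 groups 5 were picked out, and chance picks out about 1 in 20. In 3 of them the library was CR replicate 4, the highest of its diet. Hyou1 was at 35.7 CPM there, against 14.9 to 17.4 CPM in the other CR libraries. Creld2 was at 55.9 CPM, against 18.9 to 24.5 CPM. P4hb was at 1051 CPM, against 478 to 505 CPM. In the other 2 it was AL replicate 4. Sel1l was lowest there, at 174 CPM against 206 to 210.5 CPM, and Kdelr3 was highest, at 5.43 CPM against 3.00 to 3.19 CPM. The 3 genes picked out in CR replicate 4 share a library whose summed parotid markers were 56470 CPM and whose summed lacrimal acinar markers were 213661 CPM, and the part of either in these values was not tested.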

How the results depend on the processing

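With edgeR 0 of the 46 genes were called in either direction. DESeq2, with or without shrunken fold changes, called 2 higher and 1 lower, voom 1 and 1, robust dispersion 1 and 0 (1.06% and 0.767% of all genes), no filter on low counts 1 and 0 (1.62% and 0.986%), and omission of both libraries numbered 4 gave 1 and 4. Genes lower at an unadjusted p below 0.05 were 4 with all libraries, 7 with DESeq2 (either form, 8.65% of all genes), robust dispersion (8%) and no filter (6.69%), 10 with voom (9.67%) and 15 without both libraries numbered 4 (9.33%). With the parotid covariate 8 were higher and 1 lower, and the median was 0.29. With 1 library left out, 0 to 3 genes were called lower (0.22 to 2.17% of all genes) and 1 to 20 were lower at an unadjusted p below 0.05 (6.05 to 9.74%), the top of both ranges without CR replicate 4; the latter count was 2 when AL replicate 1 was left out and 1 when CR replicate 2 or 3 was. TMM factors, upper-quartile factors, a minimum of 10 counts per library, no fold threshold and omission of the 50 most counted genes (44 of the 46 then tested) gave 0 calls (1.02 to 1.21% of all genes higher, 0.74 to 0.938% lower). With the parotid covariate the log2 fold change of 17 of the 46 genes turned positive (Atf6, Dnajb11, Dnajc3, Edem2, Hsp90b1, Rpn1, Sdf2l1, Sec61b, Ssr1, Ssr3, Stt3a and 6 given next) and that of Sec61a1, Sec63 and Ssr4 negative. Values were positive in Hyou1 (0.26), Spcs2 (0.28), Ssr2 (0.45), Ern1 (0.29), Creld2 (0.11) and P4hb (0.54), and in Ergic1 (0.0058) and Chac1 (1.77) of the pathway lists. With voom 9 of the 46 turned negative, Syvn1 (−0.040), Xbp1 (−0.093), Dnajb9, Edem1, Kdelr2, Manf, Sec11c, Sec63 and Spcs1. With 1 library left out, Syvn1 ran from −0.50 to 1.71 and Xbp1 from −0.40 to 0.71. The cause of these changes was not tested. There were 617 values for the genes chosen by the naming rule or singled out. Of these, 572 kept their direction and side of the threshold, 30 passed it only under the alternative, 1 lost it and 14 reversed. Only Creb3l1 of these genes was called by edgeR with all libraries, so most of the 572 are values that stayed uncalled. Libraries of both diets with one number were not treated as pairs, because the labels name no shared source. Their deviations from the diet means correlated at 0.149, 0.0795, 0.244 and 0.462. AL replicates 1, 2 and 4 correlated best with the CR library of their own number, and AL replicate 3 with CR replicate 1 (0.324). A fit with the replicate number as a block called 2 genes higher and 2 lower (Herpud1 and Kdelr3, Canx and Ostc, against 3.46% and 2.78% of all genes), with 9 lower at an unadjusted p below 0.05 (10.4%). In that fit the edgeR adjusted p was 0.0092 for Herpud1, 0.018 for Canx, 0.021 for Kdelr3 and 0.042 for Ostc. Counting error sets little of the spread in most of these genes, but Ern1 and Kdelr3 had as few as 32 and 39 counts in a library.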
